A study of Mus musculus with 8 samples.

Results

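Lysosomal hydrolases and lysosomal membrane proteins were followed through the kidney RNA of aged and adult mice. The set was chosen by name and holds 38 genes of the 30153 in the deposited table: 10 proteases, 10 glycosidases, 5 sulfatases, 5 genes of lipid breakdown, 7 membrane proteins and the transcription factor gene Tfeb. All 38 had a row, and 37 had a mean of at least 1 TPM (a length-normalized relative abundance of transcripts) and entered the test. The exception was Gla, the alpha-galactosidase that is deficient in Fabry disease, which was listed at 0 in all 8 libraries. Filtering therefore removed no member that was high in one group.

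The aged group was 4 kidneys of aged Haplotype-II mice on a western diet, and the adult group was 4 kidneys of adult Haplotype-II mice on the same diet. Haplotype-II names the version of the human angiotensin receptor type 1 gene that the mice overexpress, which the series describes as hypertensive. Strain (C57/BL6), haplotype and diet were shared by both groups, so the comparison is one of age within this setting. Each library came from 1 animal. No label states the ages in weeks, the sexes or the promoter that drives the transgene.

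The lysosome is the acidic compartment in which cells break down proteins, glycans, sulfated sugars and lipids taken up from outside or delivered by autophagy. In the kidney it is most developed in the proximal tubule, whose cells reabsorb filtered protein and degrade it. Soluble hydrolases are made in the endoplasmic reticulum and carried to the lysosome by mannose 6-phosphate receptors, and many of their genes carry a promoter element called CLEAR, built around the letters CACGTG. TFEB and its relatives bind that element and activate the genes together.

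Because many lysosomal genes carry this element, the members' promoters were searched in the sequences that RefSeq gives for the build GRCm38.p6. Each window had 300 bases, from 250 bases before a gene's start to 50 after it. Windows were found for 34 members, 41 in all; Ctsb, Ctsh, Galns and Asah1 had no window and were not searched. The motif TCACGTG, read on both strands (CACGTGA on the other) and containing CACGTG, occurred in 12 of the 34 members (35.3%), against 4.29% of all 27025 genes with a window. The shorter CACGTG occurred in 13 members (38.2%), against 8.09% of all genes. The longer palindrome TCACGTGA occurred in 5 members (14.7%), against 1.12% of all genes. A match describes letters and does not show that a factor binds there.

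The stretches below show where the motif lies in 10 of these members, in capitals with the bases on either side. Each is read 5′ to 3′ on the gene's own strand, so that the common core can be compared. Only 1 match per member is given, and Ctsa, Ctsd, Mcoln1 and Gla each hold a further match in the same window. Ctsa, Ctsd, Mcoln1 and Gla carry the 8-base palindrome, and the other 6 the 7-base form. The Lgmn window is the only one searched whose last 30 bases were not found in a transcript of its gene.
Ctsa, chr2:164833748-164833779, plus strand: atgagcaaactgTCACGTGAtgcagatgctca
Ctsd, chr7:142387907-142387938, minus strand: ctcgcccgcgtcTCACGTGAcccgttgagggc
Mcoln1, chr8:3500461-3500492, plus strand: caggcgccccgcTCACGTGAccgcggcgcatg
Gla, chrX:134601181-134601212, minus strand: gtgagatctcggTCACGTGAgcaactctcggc
Arsa, chr15:89477423-89477453, minus strand: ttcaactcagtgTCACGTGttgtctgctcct
Gaa, chr11:119267810-119267840, plus strand: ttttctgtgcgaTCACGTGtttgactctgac
Glb1, chr9:114401017-114401047, plus strand: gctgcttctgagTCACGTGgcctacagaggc
Lgmn, chr12:102439124-102439154, minus strand: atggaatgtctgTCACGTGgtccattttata
Naglu, chr11:101070008-101070038, plus strand: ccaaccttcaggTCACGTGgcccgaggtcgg
Sgsh, chr11:119355521-119355551, minus strand: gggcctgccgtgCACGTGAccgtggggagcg

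Cln3 and Lamp1 are given as whole windows, Cln3 because it is one of the genes called below and holds the motif 2 times, and Lamp1 because it holds the motif 4 times within 62 bases before its start. The capitals again mark each match.
Cln3, chr7:126583187-126583486, minus strand: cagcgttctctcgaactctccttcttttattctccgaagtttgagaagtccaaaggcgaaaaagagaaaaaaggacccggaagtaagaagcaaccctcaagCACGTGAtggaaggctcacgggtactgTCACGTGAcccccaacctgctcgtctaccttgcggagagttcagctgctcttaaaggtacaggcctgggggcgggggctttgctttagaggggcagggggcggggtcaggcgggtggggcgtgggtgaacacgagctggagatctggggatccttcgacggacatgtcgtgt
Lamp1, chr8:13158911-13159210, plus strand: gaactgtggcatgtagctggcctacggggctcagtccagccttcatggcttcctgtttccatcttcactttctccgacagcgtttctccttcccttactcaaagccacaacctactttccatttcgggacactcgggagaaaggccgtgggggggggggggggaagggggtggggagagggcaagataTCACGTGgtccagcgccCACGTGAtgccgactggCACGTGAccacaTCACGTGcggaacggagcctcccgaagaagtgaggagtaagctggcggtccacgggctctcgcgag

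The whole libraries differed in ways that bear on every value below. TPM totals lay between 924798 and 950974 per library, and read depth is unknown. The 13 mitochondrially encoded genes took 35.9% ± 8.48 of the TPM scale in aged and 22.8% ± 3.02 in adult kidneys (SD, n = 4 each), which leaves less of the scale to other genes in aged kidneys. The median difference of all 11796 genes tested, aged minus adult, was −0.11 on the log2(TPM + 1) scale as deposited. It was −0.02 after division by median-of-ratios size factors, 0.01 with quantile normalization and 0.14 with the mitochondrial genes removed, and the members' differences are read against it. Y-linked transcripts (Ddx3y, Kdm5d, Eif2s3y and Uty, summed) were at 34.7 to 50.6 TPM in replicates 3 and 4 of both groups, and at 0.485 to 2.30 TPM in replicates 1 and 2 of both groups. The replicates are separate animals, so p-values measure the spread between animals.

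As deposited, the lysosomal genes varied together from library to library, and adult replicate 1 and aged replicate 2 carried the highest levels. The 38 genes summed to 3128, 5599, 2438 and 4021 TPM in aged replicates 1 to 4, and to 6577, 4421, 2998 and 4264 TPM in adult replicates 1 to 4. Aged replicate 2 and adult replicate 1 were the highest of their groups, and the groups overlapped. The order depended on the scaling, since these 2 libraries also had the largest size factors (1.31 and 1.49). Divided by size factors the sums were 3077, 4264, 3561 and 4098 in aged and 4429, 3832, 4108 and 4456 in adult replicates 1 to 4, so that adult replicate 4 was highest and aged replicate 1 lowest. As deposited, adult replicate 1 was the highest of the 8 libraries for 30 of the 37 measured members, against 45.8% of all genes tested, and aged replicate 3 the lowest for 21 of them, against 43.2%. With size factors adult replicate 1 was highest for 17 members, against 15.3% of all genes, and aged replicate 3 lowest for 7. As deposited, both adult replicate 1 and aged replicate 2 lay above each of the other 6 libraries for 29 members. The share of all genes for which they did was not computed, so the count cannot be read as a trait of the members. The ratio of the highest to the lowest library ran between 2.00 for Ctsh and 6.94 for Gaa, with a median of 3.94. With size factors it ran between 1.39 for Ctsl and 7.12 for Galns, with a median of 2.12.

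**Figure D1:**
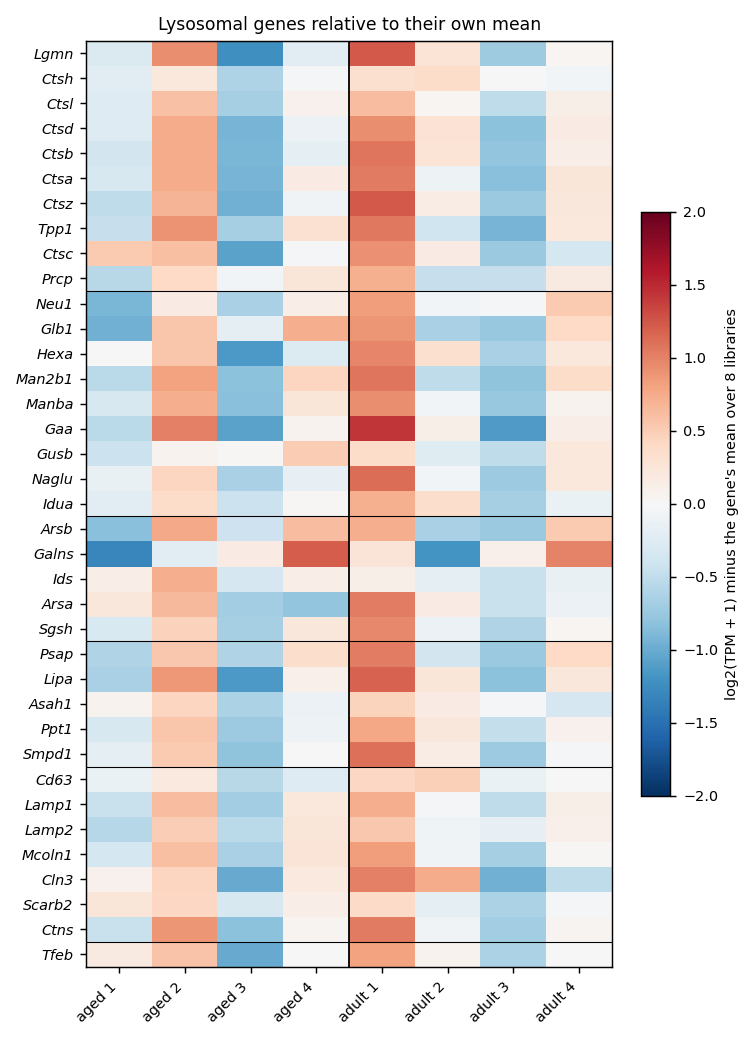
Each row is 1 lysosomal gene and each column 1 library, aged left of adult; colour is the deposited log2(TPM + 1) minus the gene's own mean over 8 libraries, and lines part the roles (proteases, glycosidases, sulfatases, lipid genes, membrane proteins, Tfeb). Aged replicate 2 and adult replicate 1 are red in most rows and aged replicate 3 and adult replicate 3 blue, while Galns departs from the pattern.

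Markers of the proximal tubule ran in nearly the same order of libraries as deposited. The 14 markers, all measured, summed to 3475, 8420, 2654 and 5059 TPM in aged replicates 1 to 4 and to 10649, 5379, 4007 and 6180 TPM in adult replicates 1 to 4. As with the lysosomal genes, adult replicate 1 was highest, aged replicate 2 second and aged replicate 3 lowest. This order was not particular to the proximal tubule. The 5 thick ascending limb markers summed to 1999 TPM in adult replicate 1, 1849 TPM in aged replicate 2 and 242 TPM, the lowest, in aged replicate 3. It also changed with size factors. The proximal tubule sum was then highest in adult replicate 1 (7171), second in adult replicate 4 (6458) and lowest in aged replicate 1 (3418). The megalin gene Lrp2, which encodes the receptor for filtered protein, had 83.3 TPM in aged replicate 2 and 96.4 TPM in adult replicate 1, against 18.5 to 54.4 TPM in the other 6 libraries. In bulk tissue a smaller share of tubule cells and less lysosomal RNA per cell cannot be told apart. Macrophage markers followed this order in part. The 16 markers summed to 80.7 to 364 TPM in aged and to 153 to 293 TPM in adult kidneys. Their sum was highest in aged replicate 1, where Lyz2 alone had 215 TPM, and lowest in aged replicate 3. The 12 at a mean of at least 1 TPM were highest in adult replicate 1, except Lyz2, Cd68 and Ms4a7. The part of these cell types in the lysosomal values was not tested.

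**Figure D2:**
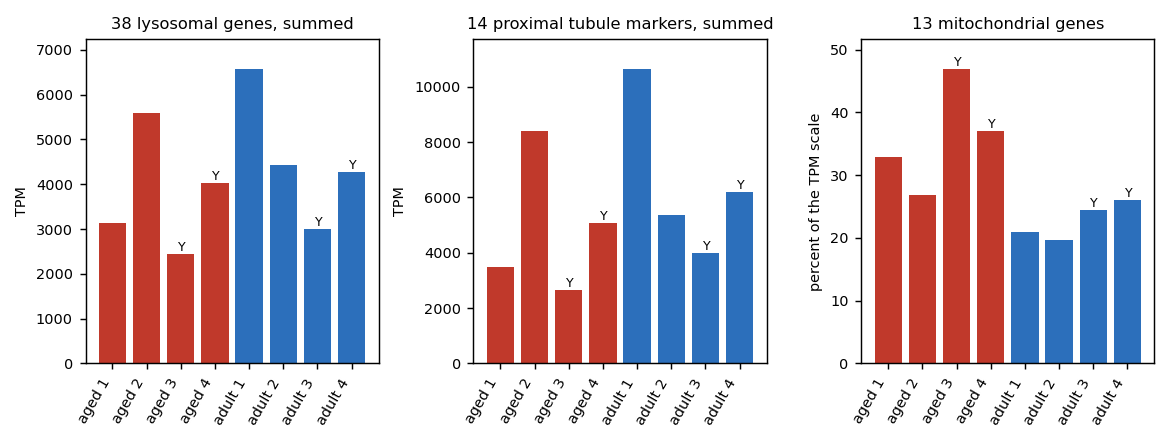
Bars show, for each aged (red) and adult (blue) library, the summed TPM of the 38 lysosomal genes, the summed TPM of 14 proximal tubule markers, and the percent of the TPM scale taken by 13 mitochondrial genes; Y marks libraries with Y-linked transcripts. Lysosomal and tubule sums are both highest in adult replicate 1 (6577 and 10649 TPM) and lowest in aged replicate 3 (2438 and 2654 TPM), where the mitochondrial share is highest.

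No lysosomal gene passed the test between aged and adult kidneys. By limma's adjusted p, 0 of the 37 members passed, as did 0 of all 11796 genes (0%). At an unadjusted p under 0.05 the count was also 0 members, against 400 of all genes (3.39%), and for 0 members did the 4 aged libraries lie wholly above or below the 4 adult ones, against 2.46% of all genes (0.348% higher and 2.11% lower). As deposited, 29 members were lower and 8 higher in aged kidneys, with a median of −0.15, where 65.0% of all genes were lower. The split turned with the scaling. With size factors 25 were lower (median −0.06), against 52.7% of all genes. With quantile normalization 18 were lower (0.0034), against 48.8%, and with the mitochondrial genes removed 12 (0.11), against 31.5%. Single libraries moved the split as well. Dropping adult replicate 1 gave a median of 0.09 and dropping aged replicate 3 one of 0.04, while it was −0.37 with either aged replicate 2 or adult replicate 3 left out. Leaving out aged replicate 4 or adult replicate 2 gave −0.23, and leaving out aged replicate 1 gave −0.09.

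These data also leave room for changes of some size. The 95% interval of the age difference lay within a 2-fold change in either direction for 16 of the 37 members and reached past it for 21. It was narrowest for Ctsh, between −0.85 and 0.20, and widest for Galns, between −1.27 and 1.12. A p above the threshold here does not show that a gene's level is the same at both ages.

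**Figure D3:**
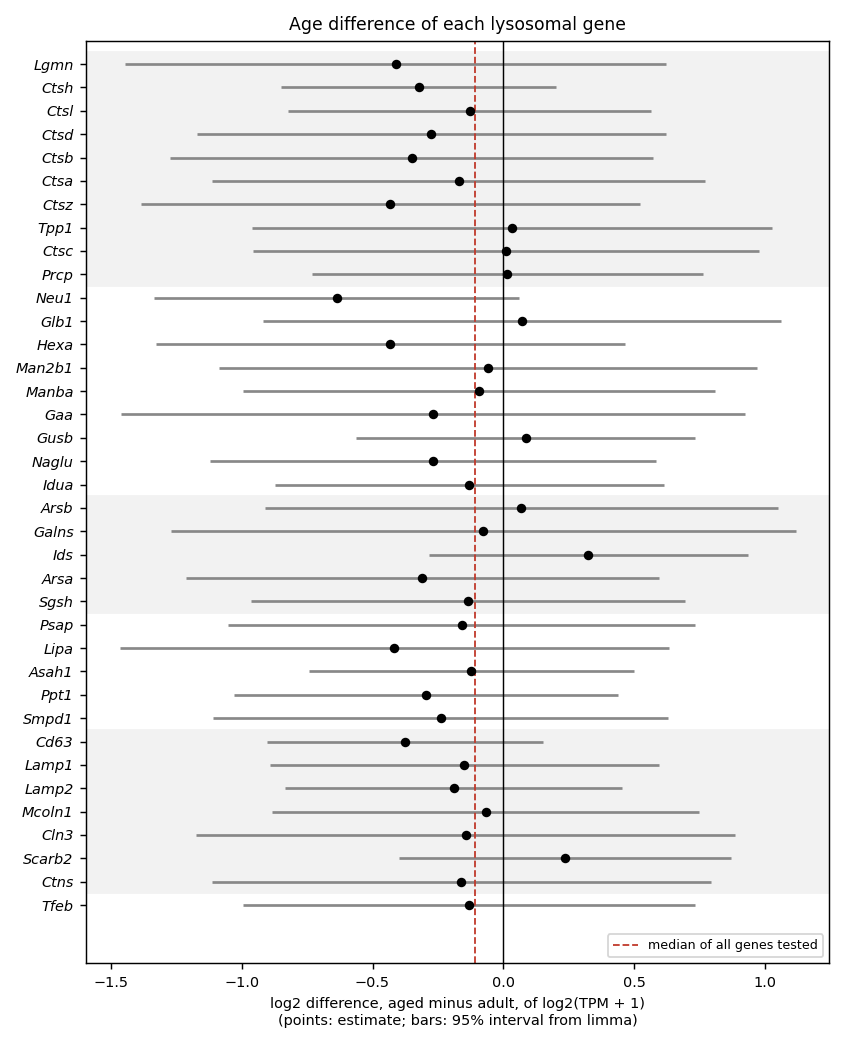
Points give each lysosomal gene's difference, aged minus adult, on the log2(TPM + 1) scale and bars its 95% interval from limma; the dashed line is the median of all genes tested (−0.11). Every interval crosses 0, and Neu1 lies furthest to the left (−0.64) and Ids furthest to the right (0.32).

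The proteases were the most abundant class of soluble enzymes. Lgmn encodes legumain, an asparaginyl endopeptidase that also matures cathepsins, and lies on chromosome 12 at 102394084 to 102439813 (GRCm38, as are all gene positions here). It had 226, 529, 118 and 236 TPM in aged replicates 1 to 4, against 653, 334, 168 and 284 TPM in adult replicates 1 to 4. The highest aged library thus exceeded 3 of the 4 adult ones, and the difference was −0.41 (SE 0.47, limma adjusted p = 1.00). Ctsh, cathepsin H, an aminopeptidase on chromosome 9 at 90054152 to 90076089, varied least among the proteases as deposited (with size factors Ctsl did), with 256, 343, 193 and 294 TPM in aged and 371, 385, 299 and 287 TPM in adult kidneys. Aged replicates 2 and 4 lay within the adult range and aged replicates 1 and 3 below it, and the difference was −0.32 (SE 0.24, adjusted p = 1.00).

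Ctsl, cathepsin L, a cysteine protease, averaged 263 ± 97.4 TPM in aged and 284 ± 89.9 TPM in adult kidneys (SD, n = 4 each). Ctsd, the main aspartic protease of the lysosome, averaged 214 ± 106 TPM in aged and 259 ± 119 TPM in adult kidneys, and Ctsb, cathepsin B, 86.3 ± 44.8 and 111 ± 57.2 TPM in aged and adult kidneys. Each of these 3 differences was smaller than the spread between animals of a group. Ctsa, which protects neuraminidase and beta-galactosidase in a complex, averaged 79.0 ± 38.2 TPM in aged and 90.8 ± 49.1 TPM in adult kidneys. Ctsz, a carboxypeptidase, averaged 62.5 ± 32.1 TPM in aged and 87.0 ± 49.9 TPM in adult kidneys, a difference of −0.43 (SE 0.44). Its 4 aged values lay within or below the adult range, which ran between 39.2 and 157 TPM. Tpp1, the peptidase lost in a form of neuronal ceroid lipofuscinosis, averaged 32.3 ± 16.9 and 32.7 ± 20.3 TPM in aged and adult kidneys. Ctsc, which activates serine proteases of leukocyte granules, averaged 9.49 ± 4.58 and 9.44 ± 5.42 TPM in aged and adult kidneys. Prcp, a carboxypeptidase that can cleave angiotensin II, averaged 5.73 ± 1.81 and 5.85 ± 2.80 TPM in aged and adult kidneys. Of the 10 proteases 7 were lower in aged kidneys as deposited, with a median of −0.22.

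Among the glycosidases Neu1 had the largest age difference of all members. It encodes the sialidase that removes terminal sialic acids, and lies on chromosome 17 at 34931253 to 34935953. It had 69.7, 148, 84.2 and 145 TPM in aged replicates 1 to 4, against 237, 128, 129 and 191 TPM in adult replicates 1 to 4. The aged libraries fell into a lower and a higher pair, and the higher pair lay within the adult range. The difference was −0.64 (SE 0.32), with an unadjusted limma p of 0.0698 and an adjusted p of 1.00. It stayed negative under each alternative run, between −0.80 and −0.35.

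Hexa, the hexosaminidase subunit lost in Tay-Sachs disease, averaged 27.4 ± 12.8 TPM in aged and 37.0 ± 16.6 TPM in adult kidneys (SD, n = 4 each; difference −0.43, SE 0.41). Glb1, the beta-galactosidase used as a stain of senescent cells, had 20.4, 60.4, 36.0 and 68.2 TPM in aged replicates and 75.8, 25.6, 23.6 and 54.1 TPM in adult replicates 1 to 4. Its groups overlapped throughout, and the difference was 0.07 (SE 0.45). The mannosidases Man2b1 and Manba averaged 19.7 and 17.0 TPM in aged kidneys, against 21.1 and 18.3 TPM in adult kidneys. Gaa, the glycogen-degrading glucosidase lost in Pompe disease, averaged 12.3 ± 8.55 and 15.7 ± 12 TPM in aged and adult kidneys. As deposited it varied most between libraries of all members, while Galns did so with size factors. Gusb, beta-glucuronidase, averaged 12.1 ± 3.41 TPM in aged and 11.4 ± 3.34 TPM in adult kidneys. Naglu and Idua, which degrade heparan sulfate, averaged 8.20 and 2.37 TPM in aged kidneys, against 10.9 and 2.85 TPM in adult kidneys. Of the 9 measured glycosidases 7 were lower in aged kidneys as deposited, with a median of −0.13.

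The sulfatases were low, and they held the member with the largest positive age difference. Ids removes sulfate from heparan and dermatan sulfate and lies on chromosome X at 70343069 to 70365084. It had 17.0, 26.2, 12.1 and 17.0 TPM in aged replicates 1 to 4, against 17.0, 13.5, 11.1 and 13.9 TPM in adult replicates 1 to 4. The groups overlapped as deposited, and the difference was 0.32 (SE 0.28, limma adjusted p = 1.00). Divided by size factors, the 4 aged values (16.7, 19.9, 17.7 and 17.3) all lay above the 4 adult ones (11.4, 11.7, 15.2 and 14.5), as they did for 2.42% of all genes. The unadjusted limma p was then 0.0180 and the adjusted p 0.673. The other member with aged above adult values on that scale was Scarb2, described below. An unadjusted p under 0.05 with size factors was found for these 2 members of 37, against 6.89% of all genes, a share near the background. On this scale 2.6% of all genes had aged values below all adult ones and 5.02% did not overlap in either direction, and for no member did the aged values lie below. With quantile normalization the same count was 2 members, again Ids and Scarb2, against 6.4% of all genes, and with the mitochondrial genes removed it was 1 member, Ids, against 4.39%.

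Arsb, which acts on dermatan sulfate, averaged 27.6 ± 14.1 TPM in aged and 26.3 ± 13.6 TPM in adult kidneys (SD, n = 4 each). Galns, which acts on keratan sulfate and is lost in a form of Morquio disease, averaged 16.7 ± 12.4 and 16.7 ± 9.61 TPM in aged and adult kidneys. Arsa, which degrades the myelin lipid sulfatide, averaged 3.88 ± 2.37 TPM in aged and 4.97 ± 2.87 TPM in adult kidneys, and the heparan sulfatase Sgsh 1.85 ± 0.971 and 2.24 ± 1.59 TPM in aged and adult kidneys. The differences of these 4 genes lay between −0.31 and 0.07, each smaller than its SE. In GENCODE M21, exons of Arsa, Arsb and Sgsh overlap genes on the opposite strand over 18.8%, 32.3% and 21.6% of their length, as do those of Ctsl over 26.9%. Exons of Ctsd overlap a gene on its own strand over 34.4%. No source states whether the authors' counting used strand, and these values can hold reads of the overlapping genes.

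The genes of lipid breakdown were all lower in aged kidneys as deposited, by less than the spread between animals. Psap encodes the precursor of the saposins, small proteins that present lipids to their hydrolases, and lies on chromosome 10 at 60277627 to 60302597. It had 173, 385, 173 and 336 TPM in aged replicates 1 to 4, against 538, 205, 158 and 347 TPM in adult replicates 1 to 4. The difference of −0.16 (SE 0.41) was positive without adult replicate 1 (0.16). Lipa, lysosomal acid lipase, which frees cholesterol from esters, averaged 72.9 ± 45.2 TPM in aged and 95.2 ± 52.7 TPM in adult kidneys (SD, n = 4 each). The thioesterase Ppt1 averaged 43.0 ± 16.9 and 52.8 ± 18.9 TPM in aged and adult kidneys. Acid ceramidase (Asah1) averaged 47.9 ± 14.4 TPM in aged and 51.4 ± 11.9 TPM in adult kidneys, and acid sphingomyelinase (Smpd1) 25.6 ± 9.89 and 32.1 ± 18.1 TPM in aged and adult kidneys. The median of the 5 differences was −0.24, and 5 of 5 members were highest in adult replicate 1.

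The membrane proteins included the most abundant members. Cd63 encodes a tetraspanin of late endosomes, lysosomes and exosomes and lies on chromosome 10 at 128900989 to 128912822. It had 875, 1099.8, 654 and 799 TPM in aged replicates 1 to 4, against 1283, 1328, 875 and 956 TPM in adult replicates 1 to 4. Aged replicate 2 lay inside the adult range and aged replicates 3 and 4 below it. Aged replicate 1 lay just below the lowest adult value (874.9 against 875.1 TPM). The difference was −0.38 (SE 0.24, limma adjusted p = 1.00). With the Y-linked class as a covariate the unadjusted limma p of Cd63 was 0.0408, and its adjusted p 0.555. Cd63 was the only member under 0.05 in that fit. The share of all genes under 0.05 there was not computed, so this p cannot be set against the background. Lamp1, a heavily glycosylated protein that lines the lysosomal membrane, had 370.2, 769.5, 312 and 584 TPM in aged and 829.9, 493, 351 and 547 TPM in adult replicates 1 to 4. Lamp2, its relative with roles in autophagy, had 205, 426, 209 and 360.2 TPM in aged and 442, 287, 271 and 325 TPM in adult replicates 1 to 4. The values of both genes overlapped between the groups, with differences of −0.15 (SE 0.34) for Lamp1 and −0.19 (SE 0.29) for Lamp2.

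The other membrane proteins, Mcoln1, Ctns, Cln3 and Scarb2, were far lower than Cd63, Lamp1 and Lamp2. Mcoln1, the calcium channel whose release of calcium activates TFEB, averaged 14.5 ± 6.02 TPM in aged and 15.5 ± 7.35 TPM in adult kidneys (SD, n = 4 each). Ctns, the cystine exporter lost in cystinosis, a disease that injures the proximal tubule, averaged 7.22 ± 4.46 and 8.14 ± 4.87 TPM in aged and adult kidneys. Cln3, lost in juvenile Batten disease, averaged 10.4 ± 4.07 and 12.8 ± 8.22 TPM in aged and adult kidneys. Scarb2, also called LIMP-2, carries glucocerebrosidase to the lysosome, and was the only one of the 7 with a positive difference as deposited (0.24, SE 0.29). It had 12.5, 14.2, 8.17 and 11.6 TPM in aged and 13.9, 9.10, 6.34 and 10.2 TPM in adult replicates 1 to 4. Divided by size factors these became 12.3, 10.8, 11.9 and 11.8 in aged and 9.36, 7.89, 8.69 and 10.6 in adult replicates. The lowest aged value then stood just above the highest adult one, and the unadjusted limma p was 0.0349.

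Tfeb, whose product activates genes with the CLEAR element, lies on chromosome 17 at 47737030 to 47792419. It had 6.33, 8.69, 2.24 and 5.44 TPM in aged replicates 1 to 4, against 10.4, 5.84, 3.20 and 5.50 TPM in adult replicates 1 to 4. As deposited, adult replicate 1 was highest, aged replicate 2 second and aged replicate 3 lowest, an order found for 18 of the 37 members, Tfeb included. The size factors had the same order (1.49, 1.31 and, lowest, 0.685), and the share of all genes in that order was not computed. The age difference of Tfeb was −0.13 (SE 0.39, limma adjusted p = 1.00), and it was positive without adult replicate 1 (0.12) or aged replicate 3 (0.18). The 11 measured members with TCACGTG in a promoter window had a median age difference of −0.17, and the 22 measured members with a window and without it −0.13. The median ratio of the highest to the lowest library was 4.12 in the first and 3.55 in the second.

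**Figure D4:**
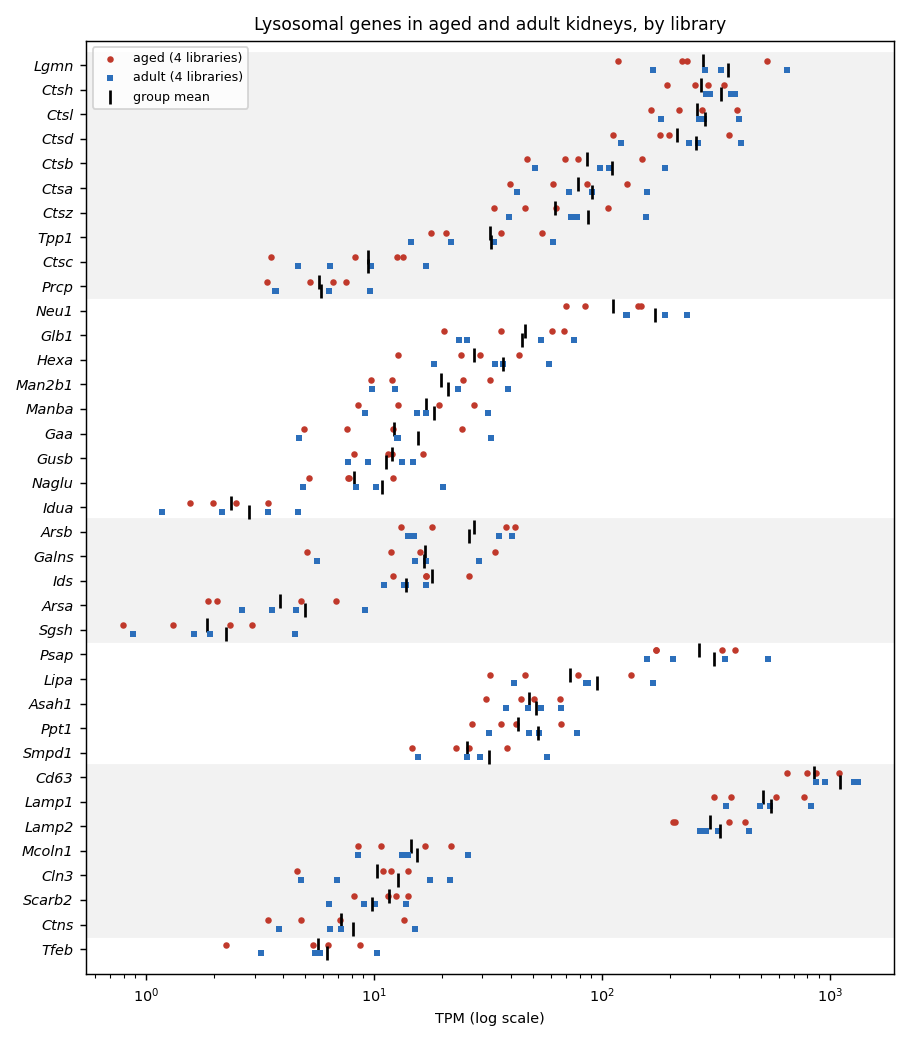
Each point is 1 library's TPM on a log axis, aged (red circles) above adult (blue squares) for each of 37 lysosomal genes, with group means as black ticks; shading parts the roles, in the order proteases, glycosidases, sulfatases, lipid genes, membrane proteins and Tfeb. Cd63 (means of 857 and 1110.3 TPM in aged and adult kidneys) and Lamp1 lie furthest to the right and Sgsh and Idua furthest to the left, and for every gene the 2 groups overlap.

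Other genes of the pathway were looked at as 7 lists, and no gene of them passed the test for age either. Their counts stand against 65.0% of all genes lower in aged kidneys as deposited, and with the mitochondrial genes removed the median turned positive for 5 of the 7 lists. Of 30 other lysosomal enzymes 26 were lower and 4 higher in aged kidneys as deposited (median −0.23, or 0.04 once the mitochondrial genes were removed). The 4 with the smallest p were Rnaset2a and Rnaset2b, near-identical ribonuclease genes whose values can trade reads, Ggh, which trims folate, and the phosphatase Acp2. Ggh averaged 20.2 ± 10.5 TPM in aged and 29.7 ± 11.2 TPM in adult kidneys (SD, n = 4 each). Of 21 measured genes of other lysosomal membrane and transport proteins 14 were lower and 7 higher (median −0.14, or 0.09 with those genes removed), led by Npc2, which hands on cholesterol, Tmem192, Lmbrd1 and Laptm4a. Npc2 averaged 33.8 ± 13.2 TPM in aged and 46.1 ± 10.3 TPM in adult kidneys.

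The proton pump, which acidifies the lysosome, had 14 of its 16 genes lower and 2 higher in aged kidneys as deposited (median −0.30, or −0.01 with the mitochondrial genes removed). Its subunit Atp6v0b had 251, 242, 191 and 188 TPM in aged and 261, 360.3, 337 and 269 TPM in adult replicates 1 to 4. As deposited all 4 aged values lay below the adult ones, as they did for 2.11% of all genes, with a difference of −0.49 (SE 0.22). Atp6v0b did not pass, with an unadjusted limma p of 0.0481 and an adjusted p of 1.00. Divided by size factors, its aged and adult values overlapped. The subunits Atp6v1f, Atp6v1g1 and Atp6v0e followed, with differences of −0.45, −0.35 and −0.35. Genes that feed nutrient signals to mTORC1 and TFEB had 11 of 14 lower and 3 higher (median −0.10, or 0.17 with the mitochondrial genes removed). In this list the 4 smallest p belonged to subunits of the Ragulator complex, which anchors mTORC1 on the lysosome. Lamtor2 among them had 98.3, 119, 86.7 and 115 TPM in aged and 155, 167, 129 and 141 TPM in adult replicates 1 to 4. Its aged values lay below the adult ones as deposited, as for 2.11% of all genes (difference −0.50, SE 0.22, limma adjusted p = 1.00). Divided by size factors, the groups overlapped. Lamtor4, Lamtor5 and Lamtor1 had differences of −0.55, −0.71 and −0.32. Lamtor1 did not overlap as deposited either (75.7 to 91.5 TPM in aged, 96.8 to 111 TPM in adult kidneys), but did with size factors. Lamtor3, the remaining subunit of the complex, had a difference of −0.07 (SE 0.23).

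Genes that sort enzymes to the lysosome had 8 of 13 lower and 5 higher (median −0.19, or 0.09 with the mitochondrial genes removed). The adaptor gene Gga3 was the exception among its 4 smallest p, with 6.85 ± 4.21 TPM in aged and 2.96 ± 1.43 TPM in adult kidneys (SD, n = 4 each; difference 0.88, SE 0.42), while Gnptg, Vps29 and the receptor gene M6pr had −0.34, −0.28 and −0.24. Autophagy genes had 15 of 17 lower and 2 higher (median −0.22, or 0.07 with the mitochondrial genes removed), led by Map1lc3b, which marks autophagosomes, at 123 ± 29.5 TPM in aged and 169.9 ± 28.7 TPM in adult kidneys. Gabarapl1, Wipi2 and Atg5 came next, with differences of −0.52, −0.30 and −0.27. Of the cystatins, inhibitors of cathepsins, Cst3 lay between 112 and 236 TPM in aged and between 128 and 340.2 TPM in adult kidneys, and Cstb averaged 184 ± 41.3 TPM in aged and 223 ± 39.7 TPM in adult kidneys. The third, Cst6, was below 1 TPM on average and was not tested.

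The split by Y-linked transcripts was the one comparison in which lysosomal genes passed the test. It is not named by the labels, was taken from the data and is balanced over age. With age and this class in 1 limma fit, 3 of the 37 members passed the adjusted threshold, against 12.4% of all genes. All 3 were lower in the libraries with Y-linked transcripts, as were 11.3% of all genes (1.13% were called higher), so the members' share is below the background. At an unadjusted p under 0.05 the count was 14 members, against 38.9% of all genes. Of the 37 members 33 (89.2%) were lower in those libraries as deposited, against 89.2% of all genes. The median was −0.55 for the members and −0.46 for all genes. With size factors the median of all genes was 0.01, and the members' was −0.05, with 19 of 37 lower.

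Ctsc had 3.55, 8.25, 4.67 and 6.45 TPM in the libraries with Y-linked transcripts (aged replicates 3 and 4, then adult replicates 3 and 4), against 12.7, 13.5, 16.9 and 9.70 TPM in those without (aged replicates 1 and 2, then adult replicates 1 and 2). The classes did not overlap, and the difference was −1.10 (SE 0.27, limma adjusted p = 0.0327). Macrophage markers were lower in the same libraries as deposited, at a summed 80.7 to 162 TPM with and 195 to 364 TPM without Y-linked transcripts. On that scale 89.2% of all genes were lower there, and divided by size factors the macrophage sums of the classes overlapped. The part of macrophages in the Ctsc difference was not tested. The 5 thick ascending limb markers stood further apart as deposited, at a summed 242 to 501 TPM with and 923 to 1999 TPM without Y-linked transcripts. Their sums did not overlap when divided by size factors either. All 5 were called lower with Y-linked transcripts as deposited, with a median of −1.60, and their part in the members' differences was not tested. Arsa, in the same orders, had 2.05, 1.87, 2.65 and 3.57 TPM with, against 4.80, 6.81, 9.12 and 4.56 TPM without Y-linked transcripts (difference −1.03, SE 0.24, adjusted p = 0.0292). Cln3 had 4.60, 11.9, 4.77 and 6.91 TPM with, against 11.0, 14.1, 21.7 and 17.7 TPM without them (difference −1.14, SE 0.31, adjusted p = 0.0451). Here aged replicate 4 lay above the lowest library without Y-linked transcripts, so the classes overlapped. Classes did not overlap for 4 members, Ctsc, Arsa, Tfeb and Asah1, all lower with Y-linked transcripts, against 21.3% of all genes; 1.35% were higher without overlap and 22.6% did not overlap in either direction. Asah1 had 30.9, 44.3, 47.6 and 37.9 TPM with, against 50.5, 65.7, 66.1 and 54.1 TPM without Y-linked transcripts, in the orders given above. None of the 3 calls held with size factors, where the adjusted p was 0.0947 for Ctsc, 0.130 for Arsa and 0.160 for Cln3. Calls also went without single libraries: Ctsc passed only without aged replicate 4 or adult replicate 2, Arsa without aged replicate 1, aged replicate 4 or either of adult replicates 2 and 4, and Cln3 without aged replicate 1 or aged replicate 4.

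Galns had the largest positive difference of the members in this split. As deposited, 4 members were higher with Y-linked transcripts, Galns, Gusb, Glb1 and Arsb, and with size factors 18 were. It had 16.0, 34.0, 15.1 and 29.0 TPM in the libraries with Y-linked transcripts, against 5.08, 11.9, 17.0 and 5.62 TPM in those without, in the orders given above. As deposited, adult replicate 1 without Y-linked transcripts lay above 2 libraries with them, and the difference of 1.24 (SE 0.41) had an adjusted p of 0.0684. With size factors the classes did not overlap (23.4, 34.7, 20.7 and 30.3 with, against 5.0, 9.05, 11.5 and 4.87 without), and Galns was the only member called, with a difference of 1.77 (SE 0.29, limma adjusted p = 0.00959), where 5.43% of all genes were called. Gusb was the other member whose values lay higher without overlap on this scale (10.6 to 16.9 with, against 8.07 to 10.03 without), against 6.77% of all genes, and Arsa the one lower, against 5.94%; 12.7% did not overlap in either direction. With quantile normalization Galns was again the only member called, at 1.72, against 5.39% of all genes, and with the mitochondrial genes removed 0 members were, against 5.99%. The age difference was also set against the class: 0 of 37 members passed the interaction test (lowest adjusted p = 1.00) and 0 had an unadjusted limma p under 0.05, against 0.0339% and 2.08% of all genes. Within the 4 libraries without Y-linked transcripts 34 of 37 members were lower in aged kidneys (median −0.30), where 71.0% of all genes were (median −0.17). Within the 4 with them 21 of 37 were lower (median −0.04), where 54.9% of all genes were (median −0.04). Each class held 2 animals per age.

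**Figure D5:**
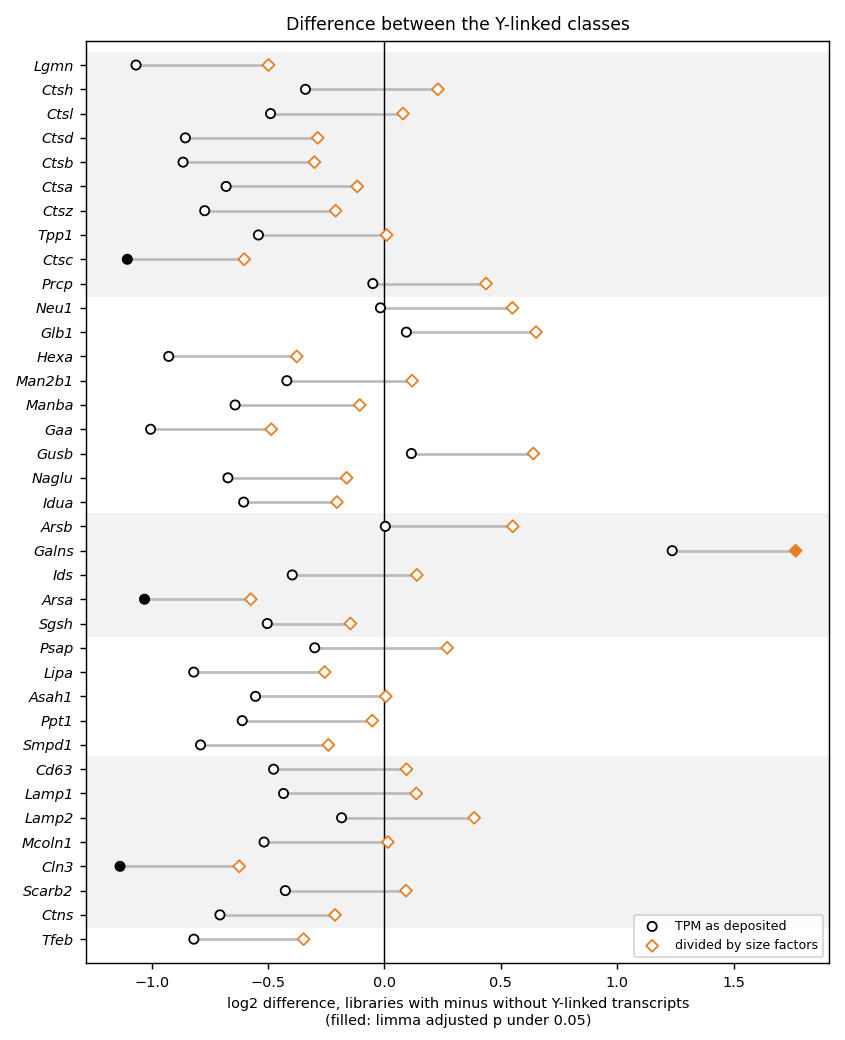
Each lysosomal gene's difference between libraries with and libraries without Y-linked transcripts, fitted beside age, is shown on the log2(TPM + 1) scale as deposited (circles) and divided by size factors (diamonds); filled symbols have a limma adjusted p under 0.05. As deposited Ctsc, Arsa and Cln3 are filled on the left, and with size factors only Galns is, at 1.77.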

How the data were processed

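The deposited values are TPM per mouse gene in 8 kidney libraries (polyadenylated RNA, stranded preparation per the labels' protocols). Kallisto, DESeq2 and GRCm38 are named, without versions, in the submitters' processing notes, and no source states which step made the TPM. Column names gave the sample of all 8 value columns. Symbols were found for 29732 of 30153 identifiers (98.6%), and 7 that shared a symbol were summed with it.

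Aged and adult libraries were compared on log2(TPM + 1) with limma (version 3.58.1, R version 4.3.3; trended variance) over the 11796 genes with a mean of at least 1 TPM, and p-values were adjusted by Benjamini-Hochberg over all of them at 0.05. TPM are not counts, so no count model was used, and these differences understate changes of low genes. The Y-linked class was set at a summed 10 TPM and fitted beside age. Intervals are limma's, at 95%. Gene positions came from GENCODE M21, and promoter windows from RefSeq. In 40 of 41 windows the last 30 bases lay in a transcript of the gene, and the exception was the Lgmn window given above.

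Alternatives were size factors, quantile normalization, pseudocounts of 0.1 and 5, the filter dropped or raised to 5 TPM, mitochondrial genes removed with rescaling, no trend, the replicate number as a block, the class as a covariate, and each library left out. All members were named, with values by library for the 6 most abundant, for Tfeb and for those whose aged and adult libraries did not overlap. Values by library were also given for members called or not overlapping as deposited between the Y-linked classes, and, after their values were seen, for Neu1, Ids, Scarb2, Glb1 and Galns. Up to 4 genes with the smallest p were named from each other list. The members, lists and tests were chosen with earlier results of these data known.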

Additional observations from a re-analysis of the deposited data

How the results depend on the processing

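The count of 0 members past the adjusted threshold for age held under every alternative run, including each library left out. The number of members lower in aged kidneys was 29 as deposited, 18 after quantile normalization and 12 once mitochondrial genes were removed. In these settings 65.0%, 48.8% and 31.5% of all genes were lower. With 1 library left out the number lay between 13 and 35, and the members' median between −0.37 and 0.09. Quantile normalization turned 11 members from lower to higher and removal of mitochondrial genes 17. Among the 11 members followed through each alternative, quantile normalization did so for Ctsh (0.0034), Lamp1 (0.17), Lamp2 (0.15) and Psap (0.14), and removal of mitochondrial genes for Lamp1 (0.14), Lamp2 (0.10), Psap (0.13) and Tfeb (0.11). Leaving out 1 library moved Psap between −0.43 and 0.16, Lamp1 between −0.38 and 0.066 and Tfeb between −0.36 and 0.18. Of the 37 members 3 were called between the Y-linked classes as deposited; size factors and quantile normalization each left 1 (Galns), removal of mitochondrial genes left 0 (Ctsc −0.99, Arsa −0.96, Cln3 −1.01, adjusted p 0.0576 to 0.0969), and leaving out 1 library gave between 0 and 5. The cause was not tested. With the replicate number as a block 0 members passed for age, as without it. Deviations of same-numbered libraries correlated at 0.038, 0.18, 0.49 and 0.42 over genes, and aged replicates 1 and 2 correlated best with adult replicates 2 and 1, so the numbers were not taken as pairs. TPM carries no depth, so counting error is unknown, and 4 animals per group limit the precision.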

Other observations

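Lysosomal proteases outside the member set spanned a wide range. Napsa, an aspartic protease that kidney and lung share, exceeded every cathepsin, with 1429, 2486, 606 and 902 TPM in aged replicates 1 to 4, against 3200 TPM in adult replicate 1 and 1938, 714 and 976 TPM in adult replicates 2 to 4. It too was highest in adult replicate 1 and lowest in aged replicate 3, and its age difference was −0.29 (SE 0.51). Between the Y-linked classes it differed by −1.46, lower with Y-linked transcripts (limma adjusted p = 0.00901). Ctss, a cathepsin of antigen-presenting cells, had 33.0, 35.4, 10.3 and 23.8 TPM in aged and 33.7, 21.6, 13.9 and 23.8 TPM in adult replicates 1 to 4. Ctsk, the collagen-degrading cathepsin of osteoclasts, was at 0.851 to 3.71 TPM in aged and 2.73 to 3.56 TPM in adult kidneys. These genes were picked after their values were seen.

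Of the relatives of Tfeb, Mitf was lower and Tfec higher than Tfeb on average in both groups. Tfe3 had 4.43, 7.80, 3.91 and 5.29 TPM in aged and 9.33, 4.38, 2.95 and 5.05 TPM in adult replicates 1 to 4. Mitf had 3.20, 3.72, 1.07 and 1.65 TPM in aged and 4.02, 3.08, 1.06 and 1.16 TPM in adult replicates 1 to 4, and was lower in the libraries with Y-linked transcripts (difference −1.01, limma adjusted p = 0.0153). Tfec varied least of the family as deposited, between 8.91 and 12.7 TPM in aged and 11.1 and 13.1 TPM in adult kidneys.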
